A study of Mus musculus with 14 samples.

Results

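The glycolytic enzymes described here were 10 genes, *Hk1*, *Hk2*, *Pfkl*, *Pfkp*, *Aldoa*, *Gapdh*, *Pgk1*, *Eno1*, *Pkm* and *Ldha*. They were chosen by gene symbol from a count table of 19525 genes, and all 10 were present. In the order given, their Ensembl identifiers were ENSMUSG00000037012, ENSMUSG00000000628, ENSMUSG00000020277, ENSMUSG00000021196, ENSMUSG00000030695, ENSMUSG00000057666, ENSMUSG00000062070, ENSMUSG00000063524, ENSMUSG00000032294 and ENSMUSG00000063229. Their mRNA was counted in 14 RNA-seq libraries made from the cytosolic lysate of 4T1 spheroids. The line 4T1 derives from a mouse mammary tumor of the triple-negative kind, and spheroids are rounded aggregates of its cells. All spheroids spent 5 days in LLM, a lung-like culture medium whose nutrients are modelled on those of lung interstitial fluid. The scrambled hairpin was studied in 4 libraries with aspartate at 700 µM, named ASP shSCR, and in 3 libraries with none added, named NoASP shSCR. A hairpin against *Grin2d*, the gene of an NMDA receptor subunit, gave 3 libraries (ASP shGRIN2D), and a hairpin against *Dhps*, the gene of an enzyme that hypusinates eIF5A, gave 4 (ASP shDHPS), all of them with aspartate. All groups shared a lentiviral hairpin vector and drug selection as mixed cell populations. None of these libraries came from a silenced line without aspartate, so an effect of silencing on mRNA in that medium was not measured here.

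Glycolysis converts glucose to pyruvate in the cytosol. Hexokinase and phosphofructokinase spend ATP to trap glucose and commit it to the pathway, the later enzymes recover ATP and make NADH, and lactate dehydrogenase turns pyruvate to lactate and so regenerates NAD+. Tumor cells often run the pathway at a high rate, and many of its genes are textbook targets of the hypoxia-inducible factors, which bind the core letters ACGTG or GCGTG.

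The promoters of *Pfkp*, *Hk2*, *Pfkl*, *Ldha* and *Pgk1* are printed because these were the 5 enzymes with the largest folds in a pair of libraries described below, and that of *Gapdh* because it moved little there. The windows run from 250 bases before to 50 bases after a RefSeq transcript start in GRCm38.p6, the build of the reference table and not the build of the counts, and they are reference sequence, not the sequence of 4T1 cells. Capitals mark ACGTG on either strand, so CACGT on the printed strand is capitalised too, and CACGTG is a match on both strands. The windows are chr13:6648722-6649021 on the minus strand for *Pfkp*, chr6:82774405-82774704 on the minus strand for *Hk2*, chr10:78009758-78010057 on the minus strand for *Pfkl*, chr7:46845554-46845853 on the plus strand for *Ldha*, chrX:106186850-106187149 on the plus strand for *Pgk1* and chr6:125165724-125166023 on the minus strand for *Gapdh*.
Pfkp: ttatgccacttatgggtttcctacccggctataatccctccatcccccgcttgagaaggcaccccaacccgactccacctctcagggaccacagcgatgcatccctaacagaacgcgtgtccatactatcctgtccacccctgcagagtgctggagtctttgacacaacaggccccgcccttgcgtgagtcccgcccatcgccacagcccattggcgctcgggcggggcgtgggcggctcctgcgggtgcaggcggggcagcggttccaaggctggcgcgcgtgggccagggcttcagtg
Hk2: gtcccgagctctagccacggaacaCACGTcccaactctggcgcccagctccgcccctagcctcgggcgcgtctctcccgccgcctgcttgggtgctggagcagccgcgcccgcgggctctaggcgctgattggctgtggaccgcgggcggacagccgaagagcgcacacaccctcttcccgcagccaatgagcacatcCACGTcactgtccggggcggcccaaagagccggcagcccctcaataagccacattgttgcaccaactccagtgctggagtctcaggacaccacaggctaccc
Pfkl: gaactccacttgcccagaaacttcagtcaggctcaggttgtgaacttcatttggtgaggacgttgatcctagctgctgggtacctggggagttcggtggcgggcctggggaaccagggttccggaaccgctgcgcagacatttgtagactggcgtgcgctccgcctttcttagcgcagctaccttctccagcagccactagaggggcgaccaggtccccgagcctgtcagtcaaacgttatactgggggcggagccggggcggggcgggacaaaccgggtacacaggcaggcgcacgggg
Ldha: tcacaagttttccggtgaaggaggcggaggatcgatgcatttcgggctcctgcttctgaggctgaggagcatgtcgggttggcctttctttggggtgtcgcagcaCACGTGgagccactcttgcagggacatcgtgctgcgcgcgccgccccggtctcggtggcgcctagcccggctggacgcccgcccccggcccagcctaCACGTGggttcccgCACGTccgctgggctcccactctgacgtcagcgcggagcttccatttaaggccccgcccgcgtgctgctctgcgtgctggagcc
Pgk1: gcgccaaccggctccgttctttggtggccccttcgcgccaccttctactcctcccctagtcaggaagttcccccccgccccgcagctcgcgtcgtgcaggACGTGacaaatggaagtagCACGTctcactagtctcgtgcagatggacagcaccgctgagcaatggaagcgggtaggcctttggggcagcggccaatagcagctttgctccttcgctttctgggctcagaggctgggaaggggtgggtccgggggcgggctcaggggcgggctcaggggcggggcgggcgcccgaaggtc
Gapdh: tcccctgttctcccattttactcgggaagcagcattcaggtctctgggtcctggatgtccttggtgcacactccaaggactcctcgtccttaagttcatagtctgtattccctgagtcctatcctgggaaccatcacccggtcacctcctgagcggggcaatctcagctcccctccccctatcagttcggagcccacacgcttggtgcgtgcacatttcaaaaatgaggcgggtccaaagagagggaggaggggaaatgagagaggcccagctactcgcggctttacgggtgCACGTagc

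All 10 genes had at least 1 promoter window, 17 windows in all, some of which overlap. ACGTG was found for 7 of the 10 genes and in 8 of the 17 windows, whereas it was found in 19.6% of all 32851 windows of the same length and for 21.8% of 27025 genes. GCGTG, again on either strand, was found for 6 of the 10 genes and for 35.2% of all genes, and CACGTG for *Ldha* only, against 8.09% of all genes. The printed *Pfkp* window held 4 copies of GCGTG and no ACGTG, and *Gapdh* held its single ACGTG after the transcript start. *Pfkl*, *Pfkp* and *Eno1* were without ACGTG in these windows. These are letter matches in a fixed window and not binding sites.

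Libraries held between 12731123 and 23231378 counts, and the 10 enzymes took 0.796% to 1.09% of them. Levels are given as CPM, the count of a gene scaled to library size by TMM, with factors between 0.984 and 1.02. *Dhps* lay between 5.46 and 9.08 CPM in ASP shDHPS and between 16.7 and 23.8 CPM in all other libraries. *Grin2d*, at 37 to 47 counts, lay between 2.06 and 3.13 CPM in ASP shGRIN2D and between 3.23 and 4.16 CPM in ASP shSCR, but its range overlapped those of ASP shDHPS (2.21 to 4.59 CPM) and NoASP shSCR (3.05 to 6.95 CPM). The 6 mammary epithelial markers tested were all expressed, with *Krt8* between 1261 and 1787 CPM. Their summed level was 3275 to 4006 CPM with either hairpin and 4216 to 4390 CPM in shSCR spheroids, and the part of this gap in the comparisons with ASP shSCR was not tested. The 6 did not move alike, a call being an edgeR adjusted p under 0.05. Against ASP shSCR, 5 folds were negative and 1 marker was called lower with the *Grin2d* hairpin, beside 1.16% of all genes called. With the *Dhps* hairpin 4 folds were negative, 2 were positive and 2 markers were called lower, beside 4.22%. Between the hairpins 1 was called higher and 1 lower, beside 2.82%. Of 4 leukocyte markers 1 was in the table, *Ptprc*, at 0.648 CPM or less, both endothelial markers stayed at or under 0.550 CPM, and of 3 fibroblast markers *Dcn* was at or under 0.0535 CPM while *Thy1* lay between 143 and 253 CPM and *Pdgfra* between 22.7 and 40.7 CPM. Since the sample is bulk RNA, fewer cells with a transcript and less of it per cell cannot be told apart.

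**Figure D1:**
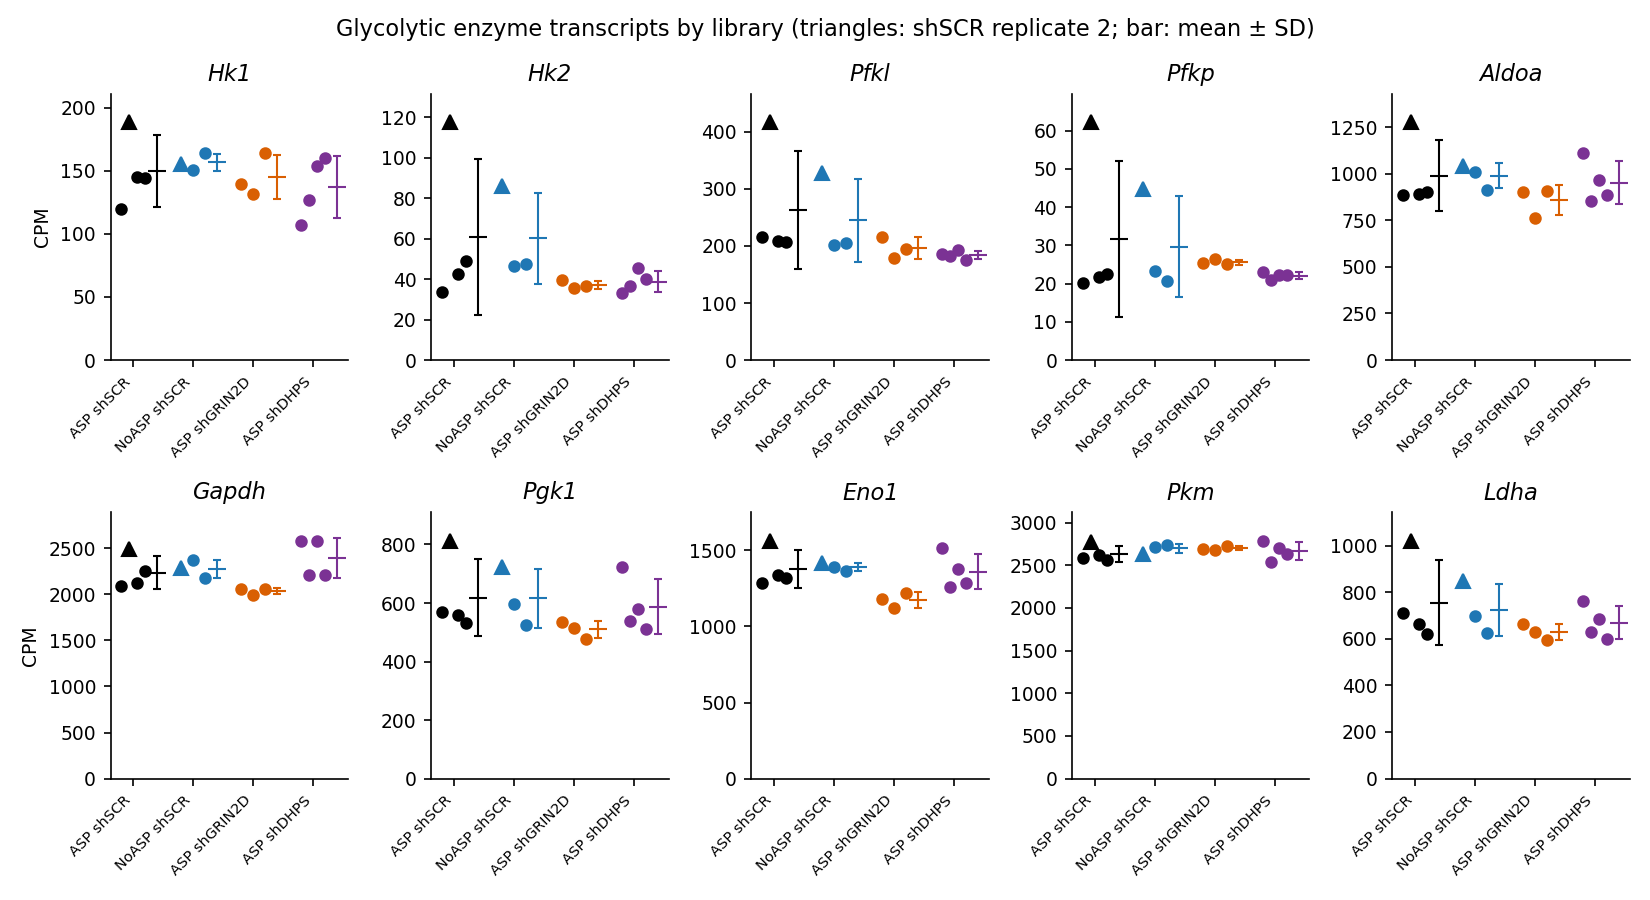
Level of each glycolytic enzyme transcript (CPM, linear axis from 0) in 14 libraries by group, with the mean and SD of each group as a bar. Triangles are the shSCR libraries numbered 2, which stand highest in their groups for *Hk2*, *Pfkl* and *Pfkp*, while *Pkm* stays between 2539 and 2789 CPM in every library.

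Transcripts of the steps from aldolase onward were far more abundant than those of the committing steps. Per kilobase of the principal transcript and averaged over the 14 libraries, *Gapdh*, which makes the pathway's NADH, was highest at 1582 ± 136 CPM per kb (SD, n = 14), and *Pkm*, the pyruvate kinase that forms pyruvate, followed at 1098 ± 32.2. *Eno1* (enolase, 657 ± 60.1), *Aldoa* (the aldolase that splits the hexose, 629 ± 83.8), *Ldha* (394 ± 65.6) and *Pgk1* (the kinase of the ATP-forming step before enolase, 321 ± 53.6) came next. The isozymes of the committing steps lay lower, *Pfkl* at 59.5 ± 18.1, *Hk1* at 38.0 ± 5.42, *Hk2* at 8.94 ± 4.30 and *Pfkp* at 6.56 ± 2.85 CPM per kb. *Eno1* and *Aldoa* did not differ beyond their spread, *Eno1* being the higher in 12 of 14 libraries. Every other neighbour pair kept its order in each of the 14 libraries. The lengths came from GENCODE vM21, and *Eno1* reads may be divided with its near-identical copy *Eno1b*, whose counts were 24.6% to 30.7% of those of *Eno1*. The other 4 copies in the table had at most 18 counts.

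The widest spread between libraries came from the replicates numbered 2 of the scrambled control, both with and without aspartate, so these libraries are described before the comparisons. *Hk2*, *Pfkl* and *Pfkp* stood above the other libraries by the most in them. *Hk2*, the inducible hexokinase, measured 33.8, 118, 42.7 and 48.8 CPM in ASP shSCR replicates 1 to 4 and 86.1, 46.7 and 47.6 CPM in NoASP shSCR replicates 2 to 4. It lay between 35.8 and 39.5 CPM in ASP shGRIN2D and between 33.0 and 45.4 CPM in ASP shDHPS, so that replicate 2 of ASP shSCR stood 2.82-fold above the mean of its group's other libraries and replicate 2 of NoASP shSCR 1.83-fold.

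*Pfkp*, the platelet-type phosphofructokinase, measured 20.3, 62.3, 21.7 and 22.6 CPM in ASP shSCR and 44.8, 23.3 and 20.8 CPM in NoASP shSCR. The same pair of libraries was high again, 2.89-fold and 2.03-fold above the others of their groups, and all libraries with a hairpin against *Grin2d* or *Dhps* lay between 20.9 and 26.4 CPM. *Pfkl*, the liver-type isozyme and the more abundant of the pair, measured 216, 417, 209 and 207 CPM in ASP shSCR and 328, 202 and 204 CPM in NoASP shSCR. Its replicates 2 were 1.98-fold and 1.62-fold above the others.

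In the lower part of the pathway the same libraries were high by less. *Ldha* measured 710, 1022, 664 and 621 CPM in ASP shSCR and 847, 699 and 625 CPM in NoASP shSCR, and *Pgk1* measured 570, 813, 560 and 530 CPM and 725, 596 and 526 CPM. *Aldoa* was at 885, 1277, 891 and 904 CPM in ASP shSCR and at 1042, 1009 and 914 CPM in NoASP shSCR. Replicate 2 led both groups for each of these 3 genes. *Eno1* followed, 1.19-fold and 1.03-fold above the other libraries.

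*Hk1*, *Gapdh* and *Pkm* did not stand out in both. *Hk1*, the constitutive hexokinase, measured 120, 189, 145 and 145 CPM in ASP shSCR but 155, 151 and 164 CPM in NoASP shSCR, where replicate 2 was not the highest. *Gapdh* measured 2091, 2487, 2118 and 2249 CPM in ASP shSCR and 2284, 2371 and 2172 CPM in NoASP shSCR. *Pkm* measured 2579, 2769, 2617 and 2557 CPM in ASP shSCR and 2633, 2718 and 2737 CPM in NoASP shSCR, where replicate 2 was the lowest.

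In all, 7 of the 10 enzymes were above every other library of their own group in replicate 2 of both shSCR groups, whereas 24.6% of the 10206 genes that averaged 5 CPM or more in the other 12 libraries were. At least 1.5-fold in both groups were 3 of the 10, *Hk2*, *Pfkl* and *Pfkp*, against 1.47% of these genes. The median fold of the 10 was 1.45 in ASP shSCR and 1.18 in NoASP shSCR, beside 0.993 and 1.00 over all these genes. ASP shSCR replicate 2 was the highest of all 14 libraries for 8 of the 10 enzymes. The exceptions were *Gapdh*, highest in ASP shDHPS replicate 3 at 2583 CPM, and *Pkm*, highest in ASP shDHPS replicate 1 at 2789 CPM. These counts describe libraries that were singled out after their values were seen, and no test was made of them.

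Hypoxia response genes and some other genes of the pathway were high in the same libraries. Of 13 hypoxia response companions, genes such as *Bnip3*, *Ero1a* and *Ndrg1* that the hypoxia-inducible factors are known to induce, all 13 were above the other libraries in replicate 2 of both groups, whatever their level. Of all 19525 genes, whatever their level, 3505 were. The median folds were 2.36 and 1.67 over the 10 that averaged 5 CPM or more in the other 12 libraries. The summed level of the 13 was 2854 CPM in ASP shSCR replicate 2 and 1816 CPM in NoASP shSCR replicate 2, and between 913 and 1123 CPM in the other 12 libraries. *Pdk1*, a kinase that inhibits pyruvate dehydrogenase, measured 28.6, 107, 25.8 and 32.0 CPM in ASP shSCR and 77.0, 23.2 and 27.5 CPM in NoASP shSCR. *Slc2a1*, the glucose transporter GLUT1, measured 134, 302, 140 and 137 CPM and 208, 153 and 135 CPM. The list of flux control and pyruvate entry did not move as a whole. Of its 16 genes 5 were above the other libraries in both groups, with median folds of 0.985 and 0.998. Of 4 transporters 2 were above, with median folds of 1.23 and 1.15. Over all genes that averaged 5 CPM or more in the other 12 libraries 24.6% were above, with median folds of 0.993 and 1.00.

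The remaining steps of glycolysis had the same order. *Gpi1*, which isomerises glucose 6-phosphate, measured 400, 645, 390 and 410 CPM in ASP shSCR, *Tpi1*, the triose isomerase, 451, 659, 433 and 434 CPM, and *Pgam1*, the mutase before enolase, 653, 966, 656 and 610 CPM. *Hif1a*, the oxygen-regulated factor that is controlled mainly at the protein level, was lower in replicate 2 in both groups, 0.927-fold and 0.925-fold of the others. None of the 7 malate-aspartate shuttle genes and 1 of 12 genes of the branches to pentose phosphate, serine and glycerol phosphate were above the other libraries in both groups. The share over all genes that averaged 5 CPM or more in the other 12 libraries was 24.6%. Of the fibroblast markers *Thy1* was at 253 CPM in ASP shSCR replicate 2, against 145 to 158 CPM in the others of its group. In NoASP shSCR replicate 2 it was at 196 CPM, against 143 to 153 CPM. *Pdgfra* was at 40.7 CPM against 27.5 to 32.8 CPM and at 33.0 CPM against 25.5 to 28.0 CPM. Both genes were thus above the other libraries of their group in replicate 2 of both groups. *Dcn* was at 0 and 0.0535 CPM in these libraries and had at most 1 count in any library, too few to show a change. Both shSCR libraries numbered 2 also had the lowest shares of mitochondrial counts, 4.53% and 4.71%. The part of these values in the pattern was not tested, and the labels do not say what a replicate number stands for.

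**Figure D2:**
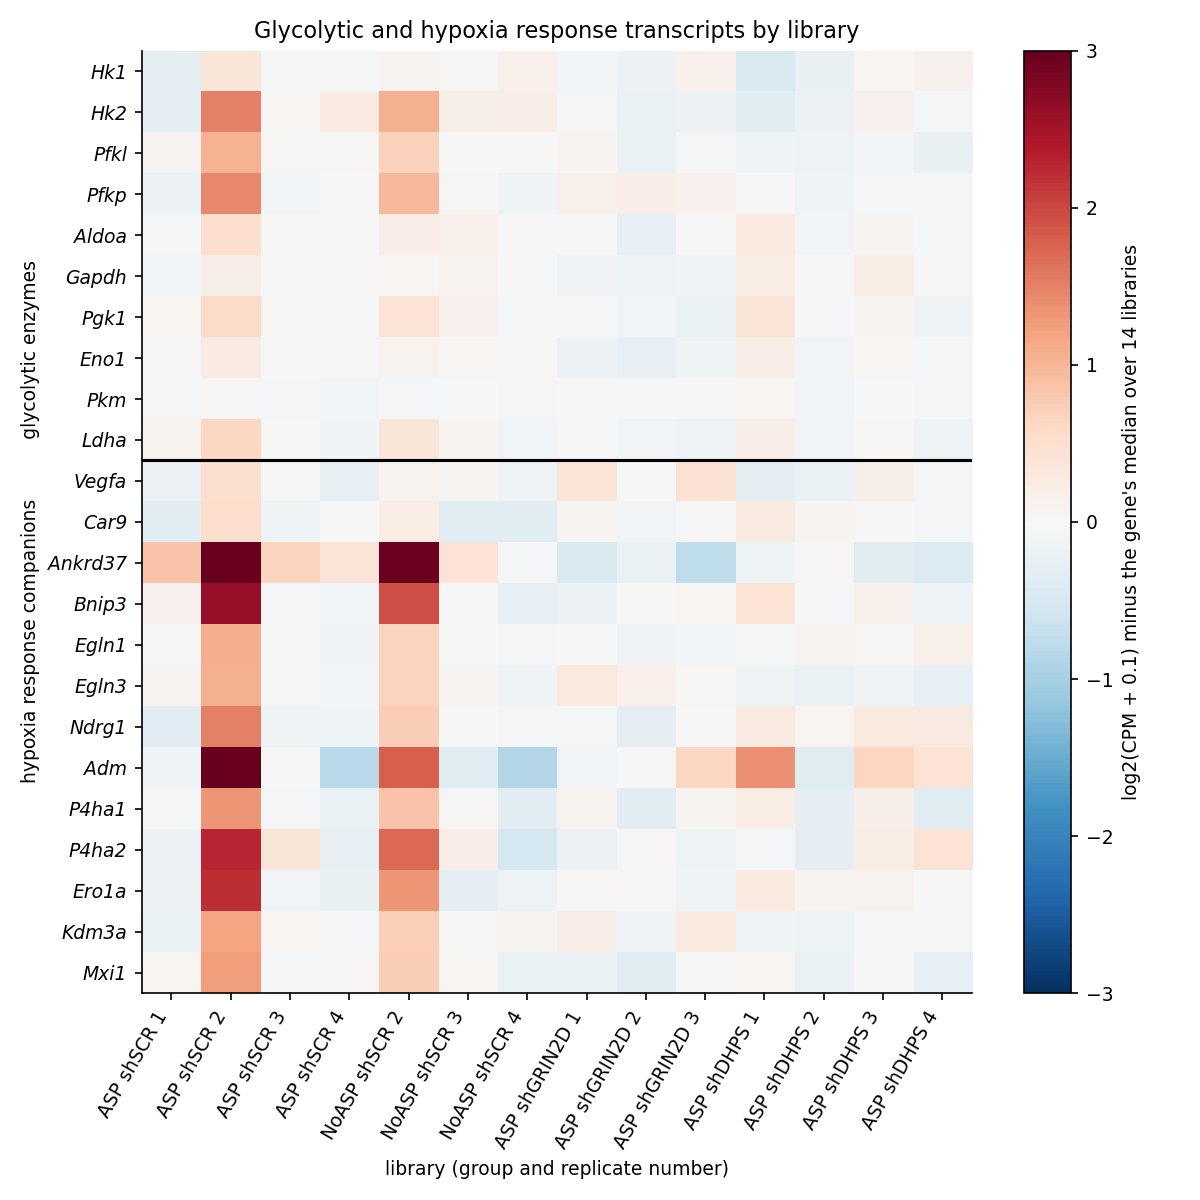
Glycolytic enzymes (upper block) and hypoxia response companions (lower block) in 14 libraries, coloured by log2(CPM + 0.1) minus the median of the gene over all libraries. Colours end at 3 below and above 0, which *Ankrd37* and *Adm* exceed in ASP shSCR replicate 2. The 2 shSCR libraries numbered 2, with summed hypoxia companions at 2854 and 1816 CPM, are high for most genes of both blocks, while *Pkm* is near 0 throughout.

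Whether added aspartate changes the transcripts of glycolysis was asked in shSCR spheroids. No glycolytic enzyme passed the test. None of the 10 was called, the call being an adjusted p under 0.05 in edgeR's quasi-likelihood test with Benjamini-Hochberg adjustment over 19525 genes, and 0% of all genes were called (424 of them had an unadjusted p under 0.05, none of the 10 enzymes among these, and 0 genes were called by DESeq2). Log2 fold changes lay between -0.07 (*Hk1*) and 0.10 (*Pfkl*), with a median of 0.0042 beside 0.00087 over all genes. No enzyme had groups that did not overlap, whereas 2.71% of all genes did.

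The precision of these folds differed between genes. *Pkm* measured 2631 ± 95.8 CPM (SD, n = 4) in ASP shSCR against 2696 ± 55.0 CPM (SD, n = 3) in NoASP shSCR and had a 95% interval of -0.20 to 0.13 on the log2 scale. *Hk2*, at 60.7 ± 38.5 CPM (SD, n = 4) against 60.2 ± 22.5 CPM (SD, n = 3), had a wider interval of -0.57 to 0.60, which reaches a rise of 1.5-fold. Without both libraries numbered 2 the *Hk2* fold was -0.18 (95% interval -0.47 to 0.10). With the replicate number as a block, still 0 of the 10 were called, while 2 genes were called in all with 14 libraries and 64 within the 7 shSCR libraries.

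Silencing of *Grin2d* was compared with the scrambled hairpin, both with aspartate. *Hk2*, *Pfkl* and *Pfkp* had the lowest folds, and no enzyme passed the test. The fit with the replicate number as a block called *Pgk1* (-0.34, adjusted p = 0.0465 in edgeR) and 611 of all genes. *Hk2* measured 39.5, 35.8 and 36.5 CPM in ASP shGRIN2D replicates 1 to 3 against 33.8, 118, 42.7 and 48.8 CPM in ASP shSCR, a log2 fold change of -0.70 (standard error 0.29, edgeR with Benjamini-Hochberg adjusted p = 0.370). The groups overlapped, and the fold was -0.16 without both shSCR libraries numbered 2. *Pfkl*, at 216, 178 and 194 CPM, had -0.42 with all libraries and -0.11 without them, and *Pfkp*, at 25.3, 26.4 and 25.1 CPM, had -0.31 with all libraries and 0.25 without them (adjusted p = 0.404 in edgeR).

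Enolase and *Gapdh* lay lower in each ASP shGRIN2D library than in any ASP shSCR library. *Eno1* measured 1182, 1118 and 1219 CPM against 1286, 1564, 1335 and 1320 CPM, a log2 fold change of -0.23 (standard error 0.09, edgeR with Benjamini-Hochberg adjusted p = 0.333). *Gapdh* measured 2053, 1994 and 2054 CPM against 2091 to 2487 CPM, a log2 fold change of -0.14 (standard error 0.09, adjusted p = 0.627 in the same edgeR test). These were 2 of 10 enzymes with groups that did not overlap, beside 12.0% of all genes, and neither was called. Without the shSCR libraries numbered 2 the folds were -0.16 and -0.08.

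Of the 10 enzymes 9 had a negative fold, as had 9609 of all 19525 genes. Their median was -0.25 beside 0 over all genes, and 0 were called where 1.16% of all genes were. *Pkm* alone had a positive fold, 0.04 (95% interval -0.13 to 0.20). *Ldha*, at 662, 631 and 596 CPM, had a fold of -0.26, *Pgk1*, at 537, 516 and 478 CPM, of -0.28, *Aldoa*, at 900.5, 763 and 907 CPM, of -0.21 and *Hk1*, at 139, 131 and 164 CPM, of -0.04. Without both shSCR libraries numbered 2, 7 of the 10 folds were negative and their median was -0.08.

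The *Dhps* hairpin was compared with the same ASP shSCR libraries. Phosphofructokinase and *Hk2* again had the lowest folds, and again no enzyme passed the test, where 4.22% of all genes did. The fit with the replicate number as a block called *Pfkl* (-0.46, adjusted p = 0.00879 in edgeR) and *Hk2* (-0.51, adjusted p = 0.0459 in edgeR). It called 2150 of all genes. *Pfkl* measured 185, 182, 193 and 175 CPM in ASP shDHPS replicates 1 to 4, below every ASP shSCR library (207 to 417 CPM), and its log2 fold change was -0.51 (standard error 0.18, edgeR with Benjamini-Hochberg adjusted p = 0.11). It was the only 1 of the 10 with groups that did not overlap, beside 11.1% of all genes. Without both shSCR libraries numbered 2 the fold was -0.19 (95% interval -0.37 to -0.02, adjusted p = 0.273 in edgeR).

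*Hk2*, at 33.0, 36.8, 45.4 and 39.9 CPM, had a log2 fold change of -0.65 (standard error 0.26, edgeR with Benjamini-Hochberg adjusted p = 0.180) that was -0.10 without these libraries. *Pfkp*, at 23.0, 20.9, 22.1 and 22.3 CPM, had -0.52 with all libraries and 0.05 without them. *Ldha*, at 761, 628, 684 and 600 CPM, had a fold of -0.17, and *Hk1*, at 107, 127, 153 and 160 CPM, of -0.13. The other 5 enzymes lay between -0.07 and 0.10, and the median of the 10 was -0.10 beside 0.0046 over all genes, and 0.05 without both shSCR libraries numbered 2.

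Among the ASP shDHPS libraries, replicate 1 stood highest for several of the lower steps. *Aldoa* measured 1109, 852, 964 and 883 CPM in ASP shDHPS, *Pgk1* 722, 538, 580 and 511 CPM, and *Eno1* 1515, 1261, 1375 and 1283 CPM. In this library *Hk1* and *Hk2* were the lowest of all 14, and its summed hypoxia companions, at 1114 CPM, were within the range of the other libraries outside the shSCR replicates 2.

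ASP shDHPS and ASP shGRIN2D were compared directly. The contrast itself uses no shSCR library, but all libraries were in the same fit. The spread of the shSCR libraries therefore still entered its standard errors. *Gapdh* measured 2576, 2206, 2583 and 2206 CPM in ASP shDHPS against 2053, 1994 and 2054 CPM in ASP shGRIN2D, a log2 fold change of 0.23 (standard error 0.09, edgeR with Benjamini-Hochberg adjusted p = 0.202). *Eno1* had a fold of 0.21 (standard error 0.09, adjusted p = 0.266 in the same edgeR test), from 1359 ± 115 CPM (SD, n = 4) against 1173 ± 51.2 CPM (SD, n = 3). *Pfkp* lay the other way, at 22.1 ± 0.865 CPM (SD, n = 4) against 25.6 ± 0.660 CPM (SD, n = 3). Its fold was -0.21 (standard error 0.29, which was also that of the *Grin2d* hairpin against ASP shSCR).

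These were the 3 enzymes of 10 whose groups did not overlap, beside 15.1% of all genes, and none of the 10 was called, where 2.82% of all genes were. The remaining 7 folds lay between -0.09 and 0.20. The fit with the replicate number as a block called *Gapdh* (0.25, adjusted p = 0.0493 in edgeR) and 1468 of all genes. Both knockdown comparisons above share the ASP shSCR libraries, so their folds are not independent of each other.

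**Figure D3:**
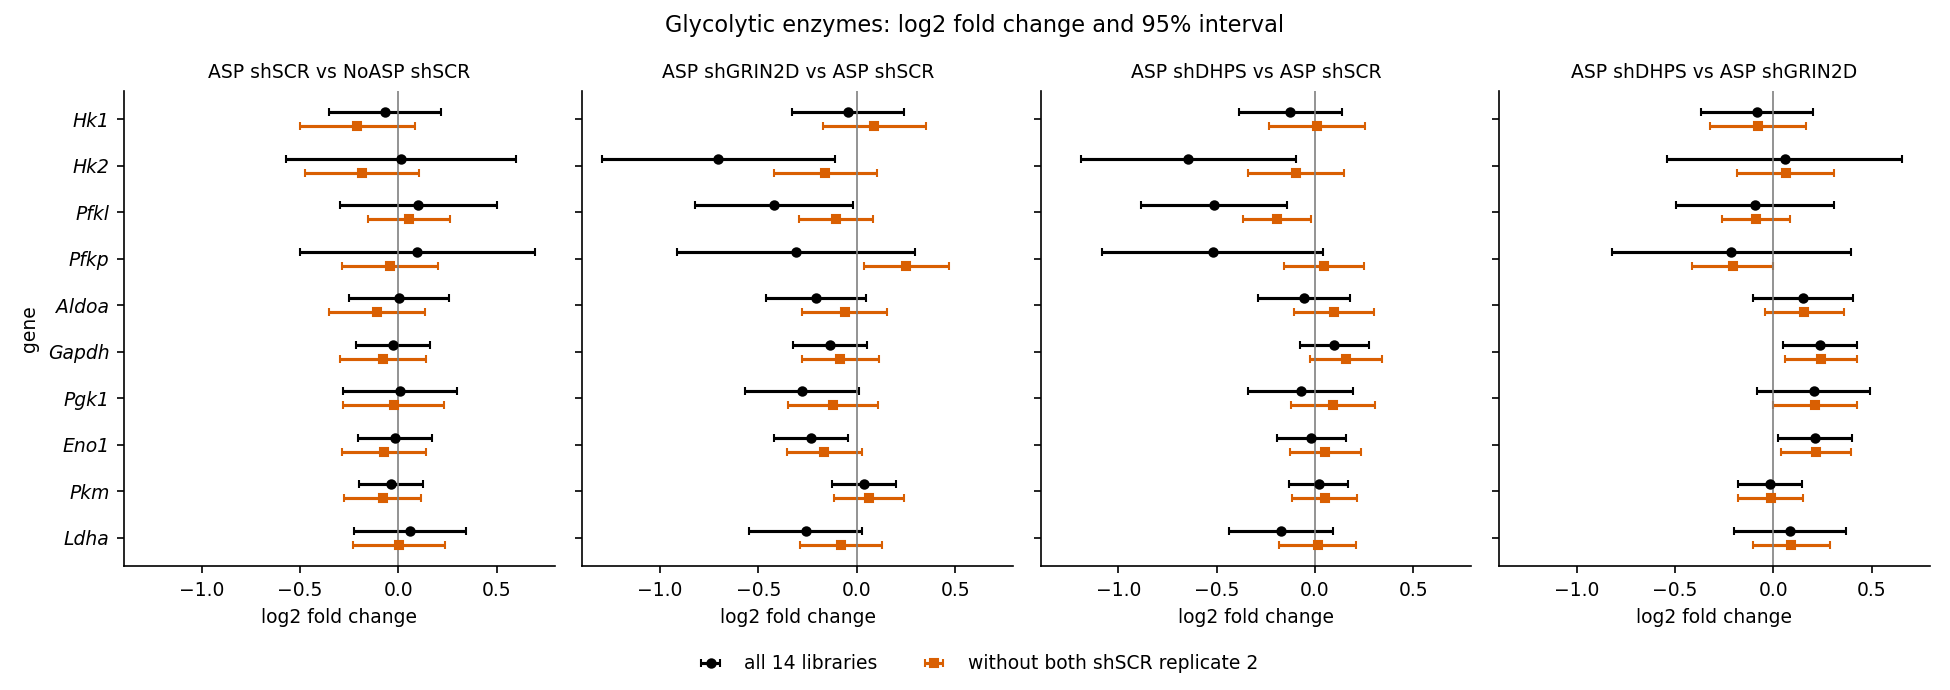
Log2 fold change of the 10 glycolytic enzymes in 4 comparisons (edgeR), with all 14 libraries (circles) and without both shSCR libraries numbered 2 (squares). Bars are 95% intervals, and the vertical line is no change. The *Hk2* estimate against ASP shSCR goes from -0.70 to -0.16 with the *Grin2d* hairpin and from -0.65 to -0.10 with the *Dhps* hairpin when these libraries are left out.

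Ratios of isozymes within a library, which need no library size, were compared with exact two-sided permutation tests over 12 combinations of ratio and comparison. The *Hk2* to *Hk1* count ratio was 0.281, 0.624, 0.295 and 0.338 in ASP shSCR and 0.555, 0.311 and 0.290 in NoASP shSCR, so that *Hk2* came nearest to *Hk1* in the libraries numbered 2. It lay between 0.222 and 0.283 in ASP shGRIN2D and between 0.249 and 0.308 in ASP shDHPS. *Pfkp* to *Pfkl* lay between 0.0939 and 0.149 over all libraries, and *Ldha* exceeded *Ldhb*, the heart-type lactate dehydrogenase, by 76.5-fold to 145-fold. The groups overlapped in all 12, and the smallest Benjamini-Hochberg adjusted p of the exact permutation tests was 0.588. The smallest p that such a test allows is 0.0571 for 3 against 4 libraries and 0.0286 for 4 against 4, so in this design no adjusted p could have passed.

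**Figure D4:**
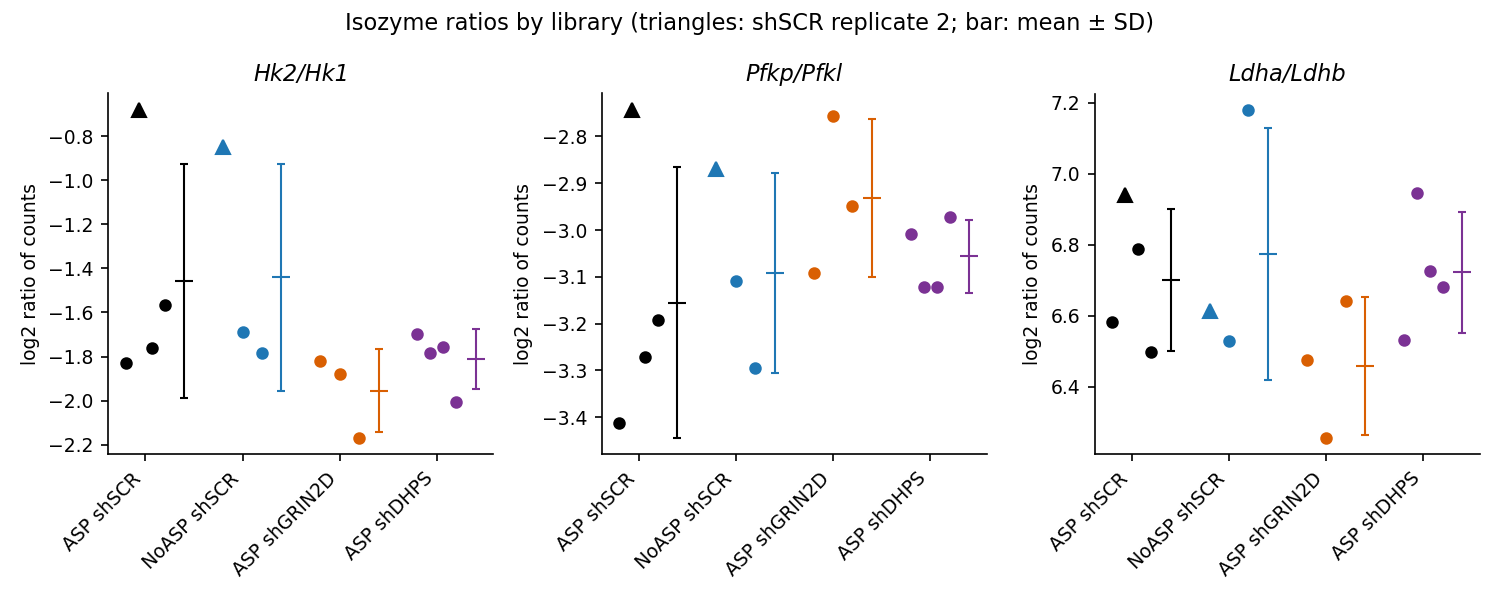
Log2 ratio of the counts of *Hk2* to *Hk1*, *Pfkp* to *Pfkl* and *Ldha* to *Ldhb* in each library, with the mean and SD of each group as a bar and triangles for the shSCR libraries numbered 2. The triangles lead both groups for the hexokinase and phosphofructokinase ratios, up to 0.624 and 0.149 on the linear scale, and only the ASP group for the lactate dehydrogenase ratio, and the vertical axes do not start at 0.

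Among 13 other glycolytic enzymes in the table, none was called with aspartate or the *Grin2d* hairpin, and *Aldoc*, the brain-type aldolase, was the 1 that fell with the *Dhps* hairpin. *Aldoc* measured 8.40, 8.06, 6.32 and 5.87 CPM in ASP shDHPS against 10.6, 31.1, 9.70 and 11.6 CPM in ASP shSCR, a log2 fold change of -1.14 (standard error 0.32, edgeR with Benjamini-Hochberg adjusted p = 0.0439). Without ASP shSCR replicate 2 it was -0.57 and not called (adjusted p = 0.265 in edgeR), and leaving out any 1 ASP shDHPS library also ended the call (adjusted p 0.0645 to 0.128), as did DESeq2 (0.0581), filterByExpr (0.0607) and a robust prior (0.193). Without both shSCR libraries numbered 2 *Aldoc* was at -0.56 and called (adjusted p = 0.0494 in edgeR). Of the genes that complete the pathway, *Gpi1* had -0.27 with the *Grin2d* and -0.22 with the *Dhps* hairpin, *Tpi1* -0.25 and -0.16, and *Pgam1* -0.13 and 0.04. *Slc2a1* had -0.23 and -0.18, *Pfkm* 0.11 and -0.25, and *Ldhb* 0.02 and -0.16, and none of the 6 was called. Without both shSCR libraries numbered 2 the folds were -0.062 and -0.0073 for *Gpi1*, -0.084 and 0.0099 for *Tpi1*, 0.043 and 0.22 for *Pgam1*, 0.15 and 0.20 for *Slc2a1*, and 0.27 and -0.081 for *Pfkm*.

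Among 9 transporters of glucose and lactate none was called against ASP shSCR. *Slc16a1*, the lactate carrier MCT1, differed between the hairpins. It measured 330, 278, 277 and 292 CPM in ASP shDHPS and 251, 220 and 224 CPM in ASP shGRIN2D, and ASP shSCR lay between them at 242 to 286 CPM. The direct log2 difference was 0.34 (standard error 0.09, edgeR with Benjamini-Hochberg adjusted p = 0.0379), and it was not called when any 1 of the 3 ASP shGRIN2D libraries was left out, nor without ASP shDHPS replicate 1 or 4 (0.28 to 0.41, adjusted p 0.0542 to 0.177), nor in the fit of these 2 groups alone (0.35, adjusted p = 0.0614).

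Of 13 genes of the branches, *Phgdh*, which leads 3-phosphoglycerate to serine, was the only 1 called, in the same comparison. It measured 256, 222, 224 and 223 CPM in ASP shDHPS and 193, 176 and 174 CPM in ASP shGRIN2D, a log2 difference of 0.35 (standard error 0.09, edgeR with Benjamini-Hochberg adjusted p = 0.0363). ASP shSCR lay at 188 to 223 CPM, and neither comparison with it was called. The call was lost without any 1 of the ASP shGRIN2D libraries or of ASP shDHPS replicates 1, 2 or 3 (0.30 to 0.40, adjusted p 0.0540 to 0.177).

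Of 4 gluconeogenic genes in the table *G6pc3*, a glucose 6-phosphatase found in many tissues, rose with the *Dhps* hairpin, from 20.6, 22.4, 23.7 and 24.4 CPM to 29.4, 28.0, 32.3 and 31.3 CPM. The groups did not overlap, and the log2 fold change was 0.41 (standard error 0.10, edgeR with Benjamini-Hochberg adjusted p = 0.0161). Without ASP shSCR replicate 1 it was 0.36 and without ASP shDHPS replicate 3 it was 0.38, not called in either (edgeR adjusted p = 0.0559 and 0.0599).

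Of 13 hypoxia response companions *Ankrd37* was called, lower with the *Dhps* hairpin. It measured 1.89, 2.13, 1.67 and 1.55 CPM in ASP shDHPS against 3.85, 26.3, 3.38 and 2.75 CPM in ASP shSCR, and the log2 fold change was -2.33 (standard error 0.65, edgeR with Benjamini-Hochberg adjusted p = 0.0439). Without ASP shSCR replicate 2 it was -0.89 (adjusted p = 0.409 in edgeR), and leaving out any 1 ASP shDHPS library also ended the call (adjusted p 0.0730 to 0.121), as did filterByExpr (0.0636), a robust prior (0.208) and leaving out both shSCR libraries numbered 2 (0.0530). The median fold of the 13 companions was -0.56 with the *Grin2d* and -0.52 with the *Dhps* hairpin, beside 0 and 0.0046 over all genes, and 12 of the 13 had a negative fold in each. These medians rest on ASP shSCR replicate 2, whose companions summed to 2854 CPM against 913 to 972 CPM in the other ASP shSCR libraries, 923 to 1054 CPM in ASP shGRIN2D and 993 to 1123 CPM in ASP shDHPS. Without both shSCR libraries numbered 2 the medians were 0.089 and 0.094, with 5 and 4 of the 13 folds negative. *Ankrd37* was then called lower with the *Grin2d* hairpin (-1.15, adjusted p = 0.0337 in edgeR) and *Ndrg1* higher with the *Dhps* hairpin (0.42, adjusted p = 0.0145 in edgeR).

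*Epas1*, which encodes HIF-2α, was the 1 of 8 transcriptional regulators that was called, lower in ASP shDHPS. It had 1, 0, 0 and 2 counts there against 32, 9, 11 and 7 counts in ASP shSCR (edgeR with Benjamini-Hochberg adjusted p = 0.00415). *Hif1a* and *Myc* were not called in any comparison. None of the 18 genes that control flux and pyruvate entry and none of the 7 genes of the malate-aspartate shuttle was called in any of the 4 comparisons. *Pdk1*, chosen after its values were seen, had a log2 fold change of -1.14 with the *Dhps* hairpin (standard error 0.36, edgeR with Benjamini-Hochberg adjusted p = 0.0808). Without both shSCR libraries numbered 2 it was -0.39 (adjusted p = 0.0766 in edgeR).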

How the data were processed

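Cytosolic RNA of 4T1 spheroids, kept back as the input of a polysome profiling experiment, was prepared with a stranded mRNA kit and sequenced. The authors trimmed reads with Trim Galore 0.6.6, checked them with FastQC 0.11.9, aligned them to GRCm39 with STAR 2.6.1, quantified genes with Salmon 1.4.0, removed genes without expression in enough replicates and deposited counts per gene as whole numbers. They also deposited tables of DESeq2 (1.34.0 per the labels) comparisons and gene set scores, which hold findings and were not used here. Salmon divides reads shared by near-identical genes, which can affect *Eno1* and *Eno1b*.

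The 14 libraries were grouped by the labels. Counts as deposited were tested with the quasi-likelihood test of edgeR 4.0.16 (R 4.3.3, limma 3.58.1), with TMM scaling, group as the only term, all libraries in 1 fit and Benjamini-Hochberg adjustment over 19525 genes, of which 535 carry an Ensembl identifier as symbol. Isozyme ratios were log2 ratios of counts plus 0.5, compared by exact permutation tests (scipy 1.17.1). The edgeR steps were tested on counts simulated without a replicate effect or an outlying library, so the effect of these on the calls was not tested there. Tables were made with pandas 2.3.3 in Python 3.11.15 and figures with matplotlib 3.10.9. Total counts of 12731123 to 23231378 limit the precision of low genes most. No 2 replicates of a group were alike enough to be 1 library, the chi-square per degree of freedom over genes being 7.69 to 41.8 in 18 pairs. The study describes its replicates as independent, but the labels do not, so p-values measure only the spread between these samples.

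The enzymes, the other gene lists and the markers were chosen with earlier results of these data known. Text names all 10 enzymes, every called gene of the other lists up to 5 per list and comparison, and *Gpi1*, *Tpi1*, *Pgam1*, *Slc2a1*, *Ldhb* and *Pfkm*. *Slc16a3* was not analysed here. Other genes named were chosen after their values were seen. ASP shSCR and NoASP shSCR libraries of the same number deviated together over genes (r = 0.514, 0.287 and 0.203). The fits with a replicate block took these numbers to pair them, a pairing that comes from the data and not from the labels. The main test did not pair them. Alternatives were DESeq2 1.42.0, other scalings, filterByExpr (13423 genes, all 10 enzymes), a robust prior, only the groups compared, the replicate block, counts of copies added, a pseudocount of 5, and each library left out. Leaving out both shSCR libraries numbered 2, the block within the 7 shSCR libraries, and a floor of 5 CPM on the other 12 libraries when describing these 2 were added after seeing the data.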

Additional observations from a re-analysis of the deposited data

Results flagged for a closer look

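ASP shSCR replicate 2 stood far from the other 3 libraries of its group for 4 of the 10 glycolytic enzymes. The gap to the nearest library divided by the range of the group was 0.956 for *Pfkl*, 0.944 for *Pfkp*, 0.951 for *Aldoa* and 0.860 for *Pgk1*, above Dixon's 95% critical value for 4 samples. *Hk2*, at 0.821, and *Eno1*, at 0.825, were just under it. In all, 26 sets of 4 values were examined, the 10 enzymes and 3 isozyme ratios in ASP shSCR and in ASP shDHPS. Chance alone puts about 1 in 20 independent sets over that value. These sets share libraries and all 4 flags fall on 1 library, so the flags cannot be set against that rate.

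The *Dhps* and *Grin2d* hairpins differed in their effect on 2 genes beside the pathway, by the direct test between the hairpins. *Slc16a1* was higher with the *Dhps* hairpin by 0.34 on the log2 scale and *Phgdh* by 0.35, in all 4 ASP shDHPS libraries against all 3 ASP shGRIN2D libraries (edgeR with Benjamini-Hochberg adjusted p = 0.0379 and 0.0363). Both calls were lost when any 1 ASP shGRIN2D library was left out, that of *Slc16a1* also without ASP shDHPS replicate 1 or 4 and that of *Phgdh* without ASP shDHPS replicate 1, 2 or 3 (adjusted p 0.0540 to 0.177 in edgeR).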

How the results depend on the processing

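No glycolytic enzyme was called in any of the 4 comparisons under any alternative other than the replicate block. With the block 1 was called with the *Grin2d* hairpin against ASP shSCR (*Pgk1*, -0.34, adjusted p = 0.0465 in edgeR), 2 with the *Dhps* hairpin (*Hk2*, -0.51, 0.0459, and *Pfkl*, -0.46, 0.00879) and 1 between the hairpins (*Gapdh*, 0.25, 0.0493). Same-numbered libraries had r of -0.101, -0.117 and 0.0420 with the *Grin2d* hairpin and of 0.00533, 0.0328 and 0.231 between the hairpins. With the *Dhps* hairpin all 4 were positive (0.258, 0.195, 0.201 and 0.0404). With so few libraries per group, these values cannot decide in any comparison whether libraries pair by number. The labels do not give a pairing. Of the folds of the 10 enzymes under all alternatives 598 kept their direction and call, 58 changed direction and 4 gained a call. The cause was not tested. Precision is limited for *Hk2* and *Pfkp*, whose spread rests on the shSCR libraries numbered 2.

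Over all genes the block called 2, 611, 2150 and 1468 genes for aspartate, the *Grin2d* hairpin, the *Dhps* hairpin and the direct comparison, and 64 for aspartate within the 7 shSCR libraries. DESeq2 called 442, 1379 and 933 in the last 3, the fit of only 2 groups 374 with the *Grin2d* hairpin, and the fit without both shSCR libraries numbered 2 called 849 between the hairpins. With each library left out the counts were 0 to 1, 86 to 208, 412 to 894 and 209 to 577. The counts moved by over 1.5 times without NoASP shSCR replicate 3 for aspartate (1), without ASP shSCR replicate 4 (132) or ASP shGRIN2D replicate 1, 2 or 3 (86, 114 and 97) with the *Grin2d* hairpin, without ASP shSCR replicate 2 (412) or ASP shDHPS replicate 3 (450) with the *Dhps* hairpin, and without ASP shGRIN2D replicate 1, 2 or 3 (209, 310 and 275) between the hairpins.

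Directions changed as follows, on the log2 scale. For aspartate, scaling by library size gave -0.0082 for *Aldoa* and -0.0036 for *Pgk1*, and the block gave 0.0081 for *Hk1*, -0.021 for *Aldoa*, -0.034 for *Pgk1*, 0.11 for *Hk2* to *Hk1* and 0.023 for *Pfkp* to *Pfkl*. Within the 7 shSCR libraries the block gave 0.018 for *Hk1*, 0.0064 for *Gapdh* and 0.013 for *Eno1*. Without both libraries numbered 2 aspartate gave -0.18 for *Hk2*, -0.041 for *Pfkp*, -0.11 for *Aldoa*, -0.023 for *Pgk1* and 0.018 for *Hk2* to *Hk1*. With the *Grin2d* hairpin *Ldhb* was -0.0067 by library size and -0.072 with the block, and *Hk1* was 0.0069 with the block. Without both libraries numbered 2 the *Grin2d* hairpin gave 0.089 for *Hk1*, 0.25 for *Pfkp*, 0.043 for *Pgam1* and 0.15 for *Slc2a1*. The *Dhps* hairpin then gave 0.010 for *Hk1*, 0.045 for *Pfkp*, 0.097 for *Aldoa*, 0.092 for *Pgk1*, 0.053 for *Eno1*, 0.013 for *Ldha*, 0.0099 for *Tpi1* and 0.20 for *Slc2a1*.

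With each library left out, folds that changed direction ranged for aspartate from -0.20 to 0.025 (*Hk1*), -0.53 to 0.36 (*Hk2*), -0.21 to 0.37 (*Pfkl*), -0.46 to 0.52 (*Pfkp*), -0.15 to 0.051 (*Aldoa*), -0.080 to 0.0058 (*Gapdh*), -0.15 to 0.14 (*Pgk1*), -0.084 to 0.015 (*Eno1*) and -0.12 to 0.19 (*Ldha*), and the ratios from -0.28 to 0.28 (*Hk2* to *Hk1*), -0.20 to 0.047 (*Pfkp* to *Pfkl*) and -0.19 to 0.13 (*Ldha* to *Ldhb*). With the *Grin2d* hairpin they ranged from -0.14 to 0.089 (*Hk1*), -0.48 to 0.25 (*Pfkp*), -0.090 to 0.13 (*Ldhb*), -0.20 to 0.044 (*Pgam1*) and -0.34 to 0.15 (*Slc2a1*). With the *Dhps* hairpin they ranged from -0.22 to 0.0067 (*Hk1*), -0.69 to 0.040 (*Pfkp*), -0.14 to 0.092 (*Aldoa*), -0.19 to 0.086 (*Pgk1*), -0.075 to 0.048 (*Eno1*), -0.0035 to 0.044 (*Pkm*), -0.26 to 0.0075 (*Ldha*), -0.063 to 0.21 (*Pgam1*), -0.25 to 0.0048 (*Tpi1*), -0.30 to 0.20 (*Slc2a1*) and -0.054 to 0.099 (*Ldha* to *Ldhb*). Between the hairpins they ranged from -0.17 to 0.019 (*Hk1*), -0.027 to 0.13 (*Hk2*) and -0.041 to 0.0037 (*Pkm*).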
